A study of Homo sapiens with 4 samples.

Results

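ANKRD1, CTGF, CYR61, NUAK2, F3, AJUBA, CRIM1, TGM2, ARHGEF17 and PTPN14 are 10 genes that are commonly read as targets of the transcriptional co-activator YAP. They were found by gene symbol among the 26364 symbols measured, and all 10 were present. CTGF and CYR61 are the older symbols of CCN2 and CCN1. The study sequenced RNA from 4 cultures of a human lung squamous cancer cell line, with 1 library per culture, and addressed how cells with extra copies of the MET receptor gene become resistant to a MET inhibitor. The parental line EBC-1, at passages 35 to 37, carries those extra copies. Its resistant derivatives EBC-CR1 (passages 64 to 66), EBC-CR2 and EBC-CR3 (each at passages 81 to 83), called CR1, CR2 and CR3 below, were selected by stepwise exposure to the MET inhibitor capmatinib. The final selecting doses were 1.5 µmol/L for CR1, 2.2 µmol/L for CR2 and 2.4 µmol/L for CR3, and all 3 were then maintained at 1 µmol/L. Resistance, drug exposure and longer culture therefore cannot be told apart. The sources used here do not give whether cells were harvested in drug, or whether a resistant line is 1 clone. Inside the deposited files the column header of CR1 carries the number 3 and that of CR3 the number 1, and the names used here are those of the sample labels.

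YAP and its paralogue TAZ (gene WWTR1) are co-activators that do not bind DNA themselves. They bind TEAD transcription factors on the DNA, and the kinases LATS1 and LATS2 of the Hippo pathway hold them in the cytoplasm by phosphorylation. Spread cells on stiff matrix with tense actin fibres have active YAP, dense cells have less, and in epithelial tumours YAP activity is known for its links to growth and drug tolerance. YAP activity is set largely at the protein level and was not measured here, so the gene levels below are levels of the target transcripts only.

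Promoter windows of 6 of the 10 genes were matched in RefSeq (ANKRD1, CTGF, NUAK2, F3, PTPN14 and, with 2 start sites, AJUBA). Each window runs from 250 bases before to 50 bases after the start site on build GRCh38.p14, whereas the deposited files name hg19. The windows were searched for GGAATG, the core of the TEAD binding motif, on both strands. Among all 35116 windows of the table, 14% held at least 1 such match, 1.37% at least 2 and 0.128% at least 3. CTGF held 3 matches, ANKRD1 and NUAK2 held 2 each, and these are printed because their transcripts are among those that differ most below. The 250 bases before the start site are given 5′ to 3′ on the gene's strand, which is the minus strand of chr10:90921088-90921337 for ANKRD1, of chr6:131951373-131951622 for CTGF and of chr1:205321746-205321995 for NUAK2. Capitals mark GGAATG or its reverse complement CATTCC.
ANKRD1: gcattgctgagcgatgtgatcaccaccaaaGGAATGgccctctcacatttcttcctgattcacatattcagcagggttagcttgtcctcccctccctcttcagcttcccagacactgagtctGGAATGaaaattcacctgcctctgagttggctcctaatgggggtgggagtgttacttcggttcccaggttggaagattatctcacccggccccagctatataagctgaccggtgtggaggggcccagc
CTGF: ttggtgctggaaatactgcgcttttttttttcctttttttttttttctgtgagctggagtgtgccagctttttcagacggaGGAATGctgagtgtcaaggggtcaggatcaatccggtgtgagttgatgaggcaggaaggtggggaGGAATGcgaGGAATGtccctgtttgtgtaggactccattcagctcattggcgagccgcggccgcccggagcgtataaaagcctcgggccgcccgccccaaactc
NUAK2: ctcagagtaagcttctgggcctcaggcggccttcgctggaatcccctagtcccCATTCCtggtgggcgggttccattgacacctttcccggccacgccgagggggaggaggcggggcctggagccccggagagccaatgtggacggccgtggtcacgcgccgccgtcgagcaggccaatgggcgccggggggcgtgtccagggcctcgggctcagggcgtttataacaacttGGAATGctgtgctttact

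Counted from the start site, the 3 matches in CTGF begin at -169, -104 and -95, all on the gene's strand, and the last pair lies close together. In ANKRD1 they begin at -220 and -128, also on the gene's strand. In NUAK2 a match on the opposite strand begins at -197 and another on the gene's strand at -18. PTPN14 held 1 match, AJUBA held 1 at its inner start site and none at its outer one, and F3 held none. F3 held 2 matches of the AP-1 motif TGANTCA, and ANKRD1 held 1, where 7.71% of all windows held at least 1. The exact string TATAAA, a form of the TATA box, was found on the gene's strand of CTGF and on the opposite strand of NUAK2 and F3. Of all windows, 11.5% hold it on either strand. Other forms were not searched for, such as the tatataa in the ANKRD1 sequence above. The NUAK2 match reads tttataa on the gene's own strand. The CArG box of serum response factor was found in none of these windows and in 1.29% of all. No match of these motifs overlapped another in these windows. A match is a string of letters in the reference and not a measured binding site.

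**Figure D1:**
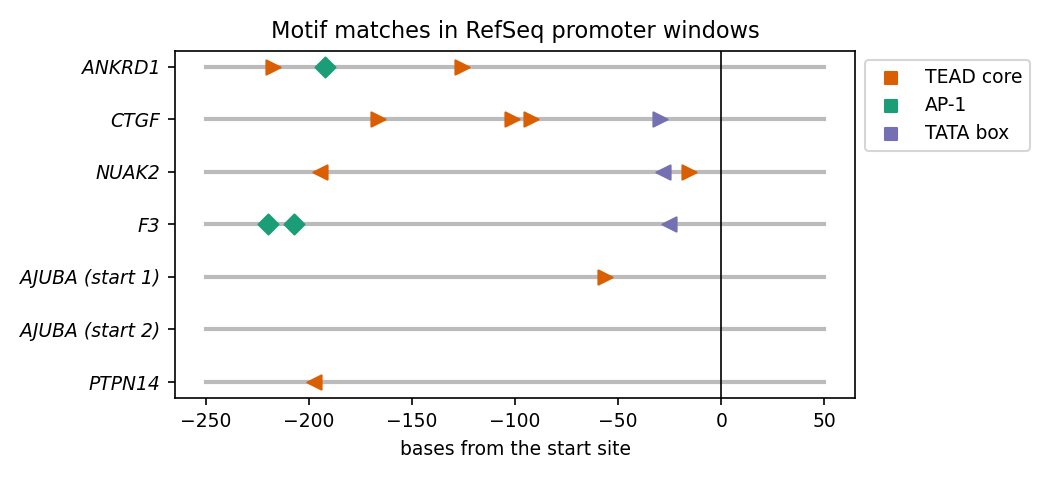
Motif matches in the 7 RefSeq promoter windows of 6 of the genes, by distance in bases from the start site (vertical line). Arrows point along the strand of the match and diamonds mark the AP-1 motif, which reads alike on both strands; CTGF has 3 TEAD cores, and ANKRD1 and NUAK2 have 2 each.

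Levels are given as deposited, as log2(normalized units + 1), and a difference is the difference of those levels. A fold is a ratio of normalized units between libraries, with a 95% interval made by an exact binomial method from the estimated reads behind each value. It covers counting error alone, because reads are not molecules and no line has a repeat culture. All 10 genes reached the floor of 10 units in at least 1 library, as 14749 genes did. The 4 libraries had been brought to nearly the same distribution, with 25.0 M units each, so that total is not a depth, and a difference in RNA content per cell cannot be seen. In bulk RNA of this kind, fewer cells that express a gene and less of its RNA per cell cannot be told apart. Epithelial markers were high in all 4 libraries, with EPCAM, CDH1, KRT8, KRT18 and KRT19 between 10.41 and 15.01. The squamous keratins KRT5 and KRT14 were listed at 0 in all 4 libraries, and TP63, the squamous transcription factor, was listed at 0 in EBC-1, against 6.65, 11.32 and 8.43 in CR1 to CR3. KRT17, another squamous keratin, was at 3.61 in CR1 and 6.22 in CR2 and listed at 0 in EBC-1 and CR3. SOX2, a transcription factor of squamous lung tumours, was at 6.45 in EBC-1, then 9.33, 9.25 and 10.85.

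ANKRD1 encodes a nuclear ankyrin repeat protein best known from stressed heart muscle and is one of the most used readouts of YAP. Its level was 5.12 in EBC-1, 12.37 in CR1, 7.67 in CR2 and 12.81 in CR3. EBC-1 was the lowest library, CR2 lay between, and CR1 and CR3 were high and close to each other. The parental value rests on about 42 reads and that of CR2 on about 159. In CR1 the gene was 156-fold higher than in EBC-1 (interval 115 to 217), in CR3 213-fold (158 to 296) and in CR2 6.01-fold (4.26 to 8.67). By its difference from EBC-1 it ranked 41 of 14749 genes from the top in CR1, 29 in CR3 and 754 in CR2. Muscle cell markers did not move with it: MYH6, MYH7, ACTC1, DES and MYOG were listed at 0 in all 4 libraries, and the 8 markers of that list summed to between 11.2 and 17.8 units per library.

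CTGF (connective tissue growth factor) and CYR61 (cysteine-rich angiogenic inducer) encode secreted matricellular proteins of the CCN family that bind integrins. CTGF was at 9.41 in EBC-1, 12.74 in CR1, 11.45 in CR2 and 12.79 in CR3. All 3 resistant lines were above EBC-1, again with CR2 between, at 10.1-fold (9.40 to 10.8), 4.12-fold (3.82 to 4.45) and 10.4-fold (9.76 to 11.2). CYR61 was at 11.95 in EBC-1, 15.17 in CR1, 11.89 in CR2 and 15.01 in CR3. CR1 and CR3 were 9.28-fold (9.02 to 9.55) and 8.31-fold (8.08 to 8.55) above EBC-1. CR2 was at 0.961 of the parental level (0.918 to 1.005), a difference not detectable at this depth. The paralogues thus parted in CR2, where CTGF was higher than in EBC-1 by a log2 difference of 2.04 and CYR61 differed by -0.06.

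The other CCN genes were low. NOV was at 4.29 in EBC-1, then 3.88, 3.61 and 2.91 in CR1 to CR3, and WISP2 was at 3.61, then 5.11, 6.22 and 7.34. WISP1 was at 6.56 in CR2 and listed at 0 in the other 3 libraries, and WISP3 was listed at 0 in all 4.

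NUAK2, a kinase of the AMPK family that acts on actomyosin, had the lowest parental level of the 10 genes, 1.91, which rests on about 3 reads. It was at 8.32 in CR1, 6.13 in CR2 and 8.34 in CR3. The order of the libraries was that of ANKRD1, and CR1 and CR3 did not differ beyond counting error (1.01-fold, 0.857 to 1.199). With so few parental reads the folds are wide, at 116 (39.3 to 566) in CR1, 25.2 (8.19 to 126) in CR2 and 118 (39.9 to 574) in CR3. F3 encodes tissue factor, the cell-surface starter of blood clotting. It was at 8.41 in EBC-1, 11.40 in CR1, 10.39 in CR2 and 11.13 in CR3. Every resistant line was above EBC-1, at 7.96-fold (7.21 to 8.79), 3.96-fold (3.55 to 4.42) and 6.61-fold (5.99 to 7.32).

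AJUBA and PTPN14 encode proteins that act back on the pathway, AJUBA as a LIM protein that binds LATS kinases and PTPN14 as a phosphatase that binds YAP. AJUBA was at 8.22 in EBC-1, 11.09 in CR1, 10.66 in CR2 and 11.18 in CR3. The 3 resistant lines lay close together, well above EBC-1, at 7.34-fold (6.60 to 8.18), 5.45-fold (4.88 to 6.10) and 7.84-fold (7.06 to 8.72). PTPN14 was at 9.75 in EBC-1, 9.97 in CR1, 10.33 in CR2 and 10.32 in CR3. It showed small differences from EBC-1, of 1.17-fold (1.07 to 1.27), 1.50-fold (1.37 to 1.63) and 1.49-fold (1.37 to 1.61). PTPN14 was also the only one of the 10 genes whose highest library was CR2, although CR2 and CR3 did not differ beyond counting error.

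CRIM1 encodes a membrane protein that binds bone morphogenetic proteins, ARHGEF17 a guanine nucleotide exchange factor, and TGM2 a transglutaminase that cross-links matrix proteins. CRIM1 was at 9.21 in EBC-1, 11.18 in CR1, 10.33 in CR2 and 11.00 in CR3. ARHGEF17 was at 8.28, 9.77, 9.28 and 9.73 in the same order. In both genes EBC-1 was lowest and CR2 next. CR1 and CR3 were 3.92-fold (3.61 to 4.25) and 3.47-fold (3.19 to 3.77) above EBC-1 for CRIM1. For ARHGEF17 they were 2.82-fold (2.50 to 3.18) and 2.74-fold (2.44 to 3.09) above it. CR2 lay near the 2-fold threshold for both, at 2.17 (1.98 to 2.39) for CRIM1 and 2.01 (1.76 to 2.29) for ARHGEF17. TGM2 was at 10.45 in EBC-1, 11.30 in CR1, 10.43 in CR2 and 10.75 in CR3. TGM2 reached 1.80-fold in CR1 (1.70 to 1.92) and 1.23-fold in CR3 (1.15 to 1.31), and CR2 was at the parental level (0.986, 0.914 to 1.063).

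**Figure D2:**
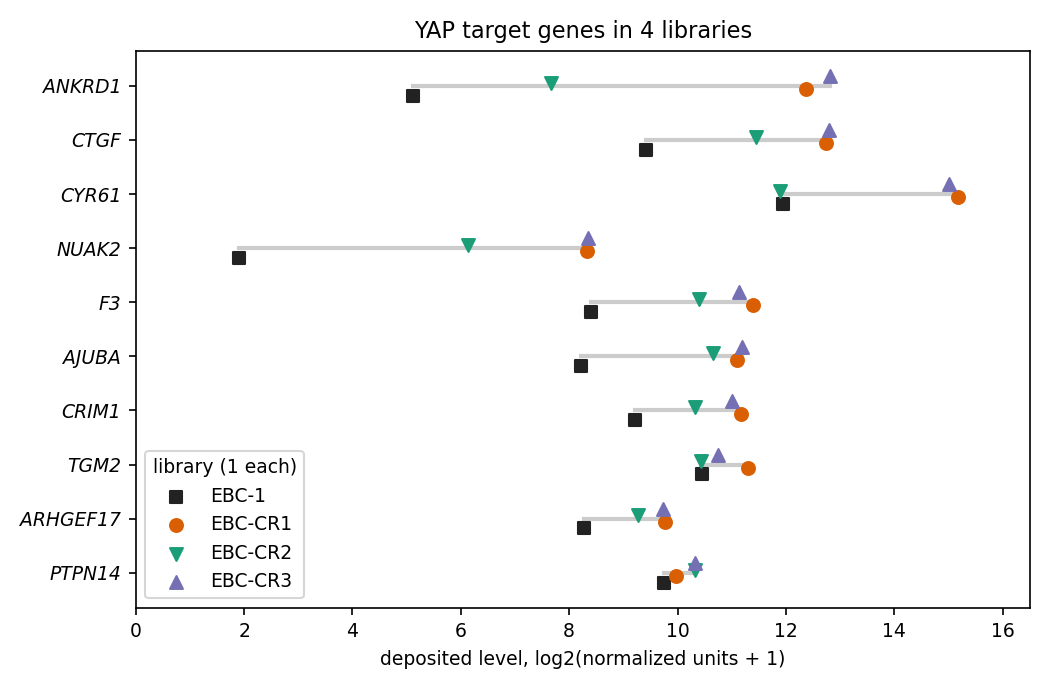
Deposited log2 levels (horizontal axis) of the 10 genes in the 4 libraries, 1 point per library, with a grey bar from the lowest to the highest. The parental square lies at or near the low end in every row, CR2 lies between it and the other two resistant lines for ANKRD1, CTGF and NUAK2, and it sits on the parental level for CYR61 and TGM2.

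Against EBC-1, 8 of the 10 genes were at least 2-fold higher in CR1, where 13.6% of the 14749 genes were. In CR2 the count was 7, where 16.9% of all genes were at least 2-fold higher. For CR3 it was 8, against 16.1% of all genes. None of the 10 was at least 2-fold lower in any line, where 14.3%, 18.4% and 16.4% of all genes were. Their median log2 differences were 2.93, 1.55 and 2.84, beside medians of -0.06, -0.06 and -0.07 over all genes. These 3 comparisons share the same parental library, so their likeness is no result. The genes missing the threshold were TGM2 and PTPN14 in CR1 and CR3, and CYR61, TGM2 and PTPN14 in CR2. At 4-fold the count in CR2 was 4 (ANKRD1, CTGF, NUAK2 and AJUBA), with F3 just under the threshold at 3.96-fold. The share of all genes at 4-fold was not counted, so this lower count is no result about these genes.

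**Figure D3:**
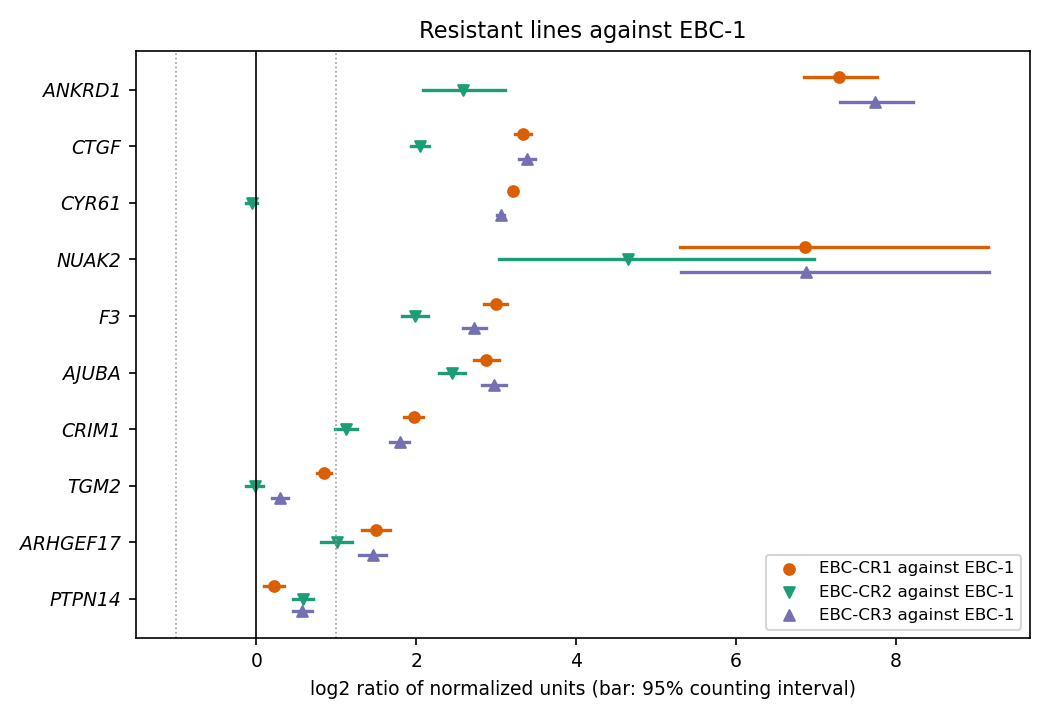
Log2 ratio of normalized units of each resistant line to EBC-1 for the 10 genes, with 95% counting intervals as bars and dotted lines at 2-fold. ANKRD1 and NUAK2 lie furthest to the right, NUAK2 with wide bars because its parental value rests on about 3 reads, and the CR2 points of CYR61 and TGM2 lie at 0.

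When CR1, CR2 and CR3 were taken as 3 replicates of the resistant phenotype, 0 of the 10 genes passed limma with Benjamini-Hochberg adjustment, which called 27 of the 14749 genes (0.183%), 26 higher and 1 lower. At an unadjusted p under 0.05, limma took 7 of the 10 genes, where it took 10.6% of all genes. This test has 2 residual degrees of freedom and borrows the spread of the resistant lines for the single parental library. Its p-values rest on how far these 3 lines differ from each other, with each gene's variance drawn toward a trend over all genes. They take in no spread between parental cultures. AJUBA had the lowest p of the 10 genes, with a mean of 10.98 ± 0.28 (SD, n = 3 resistant lines) in the resistant lines and a limma log2 fold of 2.76 ± 0.37 (SE; Benjamini-Hochberg adjusted p = 0.128, unadjusted 0.000711). ANKRD1, at 10.95 ± 2.85 (SD, n = 3 resistant lines), had the largest log2 fold of the 10 genes, 5.83 ± 2.10 (SE), with a limma adjusted p of 0.448, and CR2 lay far below the other two lines. For NUAK2 limma gave a log2 fold of 5.69 ± 1.05 (SE; adjusted p = 0.208). NUAK2 reached the floor only in the resistant lines, and its SE holds no counting error of the about 3 parental reads. With a pseudocount of 5 its log2 fold was 4.68. CTGF had 2.92 ± 0.63 (SE) with a limma adjusted p of 0.269, and F3 had 2.56 ± 0.49 with 0.226. CRIM1, ARHGEF17, CYR61, PTPN14 and TGM2 had log2 folds of 1.63, 1.32, 2.07, 0.46 and 0.38 with limma adjusted p of 0.362, 0.389, 0.651, 0.692 and 0.794. Without CR2 the log2 fold of CYR61 was 3.13 and that of TGM2 0.57, and without CR1 that of TGM2 was 0.14. When any 1 of CR1, CR2 and CR3 was left out, limma had 1 residual degree of freedom and called 0 of all genes, with 765 to 2484 genes at an unadjusted p under 0.05. A count from so small a design says nothing about the stability of the 27 calls.

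The resistant lines were then compared with each other, which does not use the parental library. Between CR3 and CR1, 0 of the 10 genes differed at least 2-fold, where 15.7% of all genes did. For 10 genes this count is not far from that share. The median absolute log2 difference was 0.17, beside 0.39 over all genes. That all-gene median includes genes with few reads, whose counting error is wider. The widest differences between them were TGM2, lower in CR3 by a log2 difference of -0.55, and ANKRD1, higher there by 0.45. CR2 differed from CR1 at least 2-fold in 5 of the 10 genes, all lower in CR2, where 16.6% of all genes were lower by that much. Their folds were 0.038 for ANKRD1 (0.033 to 0.045), 0.104 for CYR61 (0.100 to 0.108), 0.217 for NUAK2 (0.160 to 0.289), 0.410 for CTGF (0.390 to 0.431) and 0.497 for F3 (0.461 to 0.536), the last with an interval across the threshold. CR3 was at least 2-fold above CR2 in 4 of the 10 genes, where 14.4% of all genes were. These were ANKRD1 at 35.5-fold (30.3 to 41.8), CYR61 at 8.65-fold (8.32 to 8.99), NUAK2 at 4.67-fold (3.51 to 6.32) and CTGF at 2.53-fold (2.41 to 2.66). CR2 enters both of the last comparisons, so their likeness is no separate result. AJUBA, CRIM1, ARHGEF17 and TGM2 were lower in CR2 than in the mean of CR1 and CR3 by smaller log2 differences of -0.48, -0.76, -0.47 and -0.60. There is 1 library per line, so no test of these differences was possible.

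**Figure D4:**
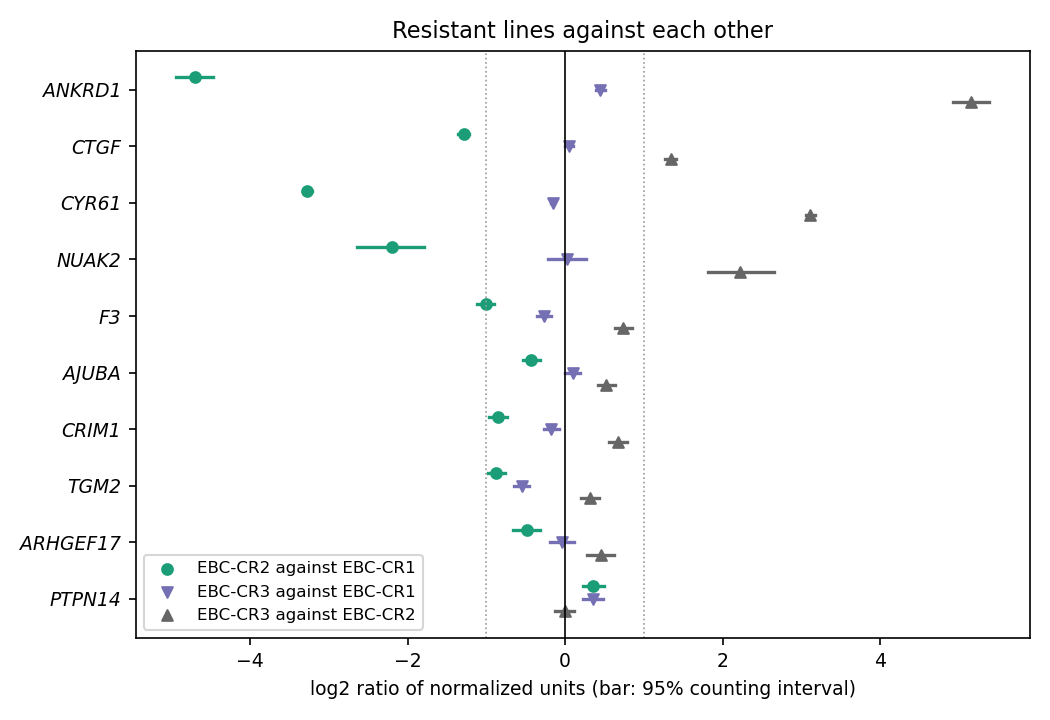
Log2 ratio of normalized units between pairs of resistant lines for the 10 genes, with 95% counting intervals as bars and dotted lines at 2-fold. The CR3 against CR1 points all lie within the dotted lines, whereas ANKRD1, CYR61, NUAK2 and CTGF lie outside them on opposite sides in the comparisons with CR2.

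Beside these values, the haemoglobin genes, which are markers of red cells, were detected in CR1. HBB was at 13.90, HBA2 at 11.61 and HBA1 at 9.21 there, and all were listed at 0 in the other 3 libraries. ALAS2, the remaining red cell marker of the list, was at 4.86 in CR1 and 4.85 in CR2 and listed at 0 in EBC-1 and CR3. The 10 genes in CR3, where the haemoglobin genes were listed at 0, were within 2-fold of those in CR1. The source of the haemoglobin transcripts and the part of red cells in the values of CR1 were not tested. Fibroblasts also express CTGF, CYR61 and F3. Of 8 fibroblast markers, DCN, LUM and THY1 were listed at 0 in all 4 libraries, COL1A1 was the only one to reach 10 units in any library (5.37 in EBC-1, then 6.64, 6.43 and 7.25), and the summed level was 46.2 units in EBC-1 and 105, 87.2 and 156 in CR1 to CR3. The part of such cells in the differences was not tested. The 5 endothelial markers summed to at most 2.50 units and the 5 leukocyte markers to between 6.25 and 9.50 units per library. CYR61 stood at 3963 units in EBC-1 and 36777 in CR1, and the part of these cells in its level was not tested.

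Another 14 genes complete a widely used list of 22 YAP and TAZ targets, of which 8 are among the 10 genes above. FOXF2 was listed at 0 in all 4 libraries, and of the 13 that reached the floor, 7 were at least 2-fold higher in CR1, 7 in CR2 and 8 in CR3, where 13.6%, 16.9% and 16.1% of all genes were, and none was at least 2-fold lower, where 14.3%, 18.4% and 16.4% were. The median log2 differences were 1.38, 1.05 and 1.36. IGFBP3, a binding protein of insulin-like growth factors, was at 9.48 in EBC-1, then 15.04, 13.16 and 15.43 in CR1 to CR3. TGFB2, a transforming growth factor, was at 9.83, then 14.18, 11.53 and 14.38. Both kept the order seen for ANKRD1 and CTGF, with CR2 between EBC-1 and the other lines. RBMS3, an RNA-binding protein gene, was at 2.46 in EBC-1, 10.93 in CR1, 3.86 in CR2 and 11.75 in CR3, and its log2 ratio in CR2 had an interval from -0.02 to 3.44, so a difference there was not detectable at this depth. CCDC80, a secreted matrix protein gene, had another order, at 9.08 in EBC-1, then 14.10, 14.83 and 14.76. It was the 1 gene of the 13 that passed limma over all genes, with a log2 fold of 5.49 ± 0.43 (SE; Benjamini-Hochberg adjusted p = 0.0337), and the log2 fold was 5.35 to 5.72 when any 1 resistant line was left out, a fit in which limma called no gene (765 to 2484 genes at an unadjusted p under 0.05).

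The genes of the Hippo pathway itself were given by a list of 23, of which VGLL3 stayed under the floor. YAP1 was at 12.32 in EBC-1, then 13.18, 12.85 and 12.65 in CR1 to CR3, and WWTR1, the TAZ gene, was at 12.93, then 11.93, 11.24 and 11.53. Of the partners on DNA, TEAD1 was at 9.28, then 9.59, 9.47 and 9.95, TEAD2 at 14.53, then 13.47, 14.15 and 14.03, TEAD3 at 8.26, then 8.88, 10.56 and 9.40, and TEAD4 at 8.69, then 9.65, 7.58 and 9.17. In CR2, TEAD3 was thus the highest of its 4 values and TEAD4 the lowest of its own. Over the 22 pathway genes past the floor, the median log2 differences were 0.35, 0.38 and 0.45, with 6, 6 and 7 genes at least 2-fold higher (13.6%, 16.9% and 16.1% of all genes) and 4, 3 and 2 at least 2-fold lower (14.3%, 18.4% and 16.4% of all genes). The counts of lower genes thus lay near or under those of all genes. The motins, which hold YAP outside the nucleus, were among the higher genes. AMOTL1 was listed at 0 in EBC-1, against levels of 7.92, 8.44 and 8.73. AMOT was at 3.17 in EBC-1, then 9.59, 10.68 and 9.57, and AMOTL2, itself a listed YAP target, was at 9.96, then 13.42, 11.14 and 12.41. AMOTL1 and AMOT were the 2 of the 22 that passed limma, with Benjamini-Hochberg adjusted p of 0.0259 and 0.0488. Both reached the floor of 10 units only in the resistant lines. In EBC-1, AMOTL1 was at 0 units and AMOT at 8 units, or about 9 reads. The floor thus admitted both through the lines where they are high, so these calls are not independent of it. The log2 fold of AMOT was 6.78, and 6.41 to 6.97 when any 1 resistant line was left out, fits in which limma called no gene. No fold is given for AMOTL1, whose parental value is a listing at 0. YAP1 and WWTR1 had limma log2 folds of 0.58 and -1.36 with adjusted p of 0.626 and 0.381. The scaffold gene WWC1 was at 10.98, then 13.80, 12.58 and 14.13, and the TEAD cofactor gene VGLL1 was at 4.97 in CR2 and listed at 0 in the other 3 libraries. LATS2 and AMOTL2 belong to both lists.

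**Figure D5:**
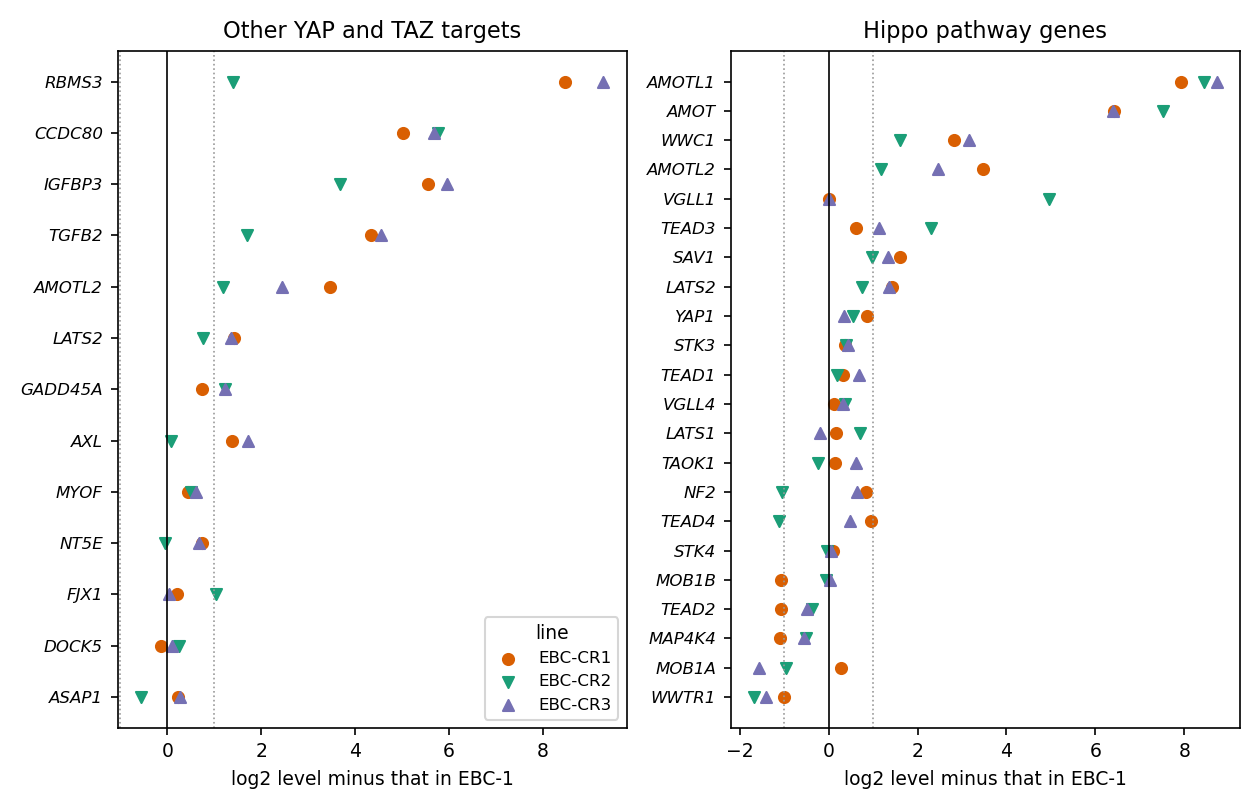
Difference of the log2 level in each resistant line from that in EBC-1 for the 13 other YAP and TAZ targets (left) and 22 Hippo pathway genes (right) that reached 10 units, sorted by their mean, with dotted lines at 2-fold. RBMS3, IGFBP3 and TGFB2 show CR2 well to the left of the other lines, and AMOTL1 and AMOT lie furthest to the right among pathway genes.

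Serum response factor with its MRTF partners and TGF-beta also act on CTGF and CYR61, and lists of their targets were set beside the 10 genes. Of 13 SRF and MRTF targets past the floor, 2 were at least 2-fold higher in CR1, 7 in CR2 and 5 in CR3 (13.6%, 16.9% and 16.1% of all genes), with medians of 0.27, 1.11 and 0.55. ACTA2, the smooth muscle actin gene, was at 5.27 in EBC-1, then 5.98, 9.34 and 5.77, and so was highest in CR2. FHL1 was at 4.51 in EBC-1, then 7.19, 6.82 and 7.86, and so was lowest in CR2 among the resistant lines. MYL9 was at 3.81, then 5.48, 6.45 and 6.88, highest in CR3. The order of the lines thus differed between members of the list. The part of these factors in the levels of the 10 genes was not tested. CNN2, MYL9, TPM1, FHL1 and FLNA had mean log2 differences of 1.22, 2.46, 0.76, 2.78 and -0.80. Of 9 TGF-beta targets past the floor, 2, 0 and 1 were at least 2-fold higher (the same shares of all genes) and 3, 1 and 1 lower (14.3%, 18.4% and 16.4% of all genes), with medians of -0.46, 0.05 and 0.17. The transcription factor gene SNAI2 was at 6.86, then 9.22, 6.58 and 7.77, and SKIL, TGFBI, PMEPA1 and BHLHE40 had mean log2 differences of 1.17, -0.51, -0.87 and 0.71. Of these 22 genes, 0 passed limma with Benjamini-Hochberg adjustment and 3 had an unadjusted p under 0.05 (10.6% of all genes), among them FHL1 with an adjusted p of 0.270 and MYL9 with 0.402.

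Likeness to ANKRD1 was measured over the 4 libraries as the Euclidean distance between log2 levels centred on each gene's mean. The nearest of the 14749 genes was INHBA, an activin subunit gene, at a distance of 0.52 log2 units, with levels of 6.12 in EBC-1, then 13.38, 9.03 and 13.43 in CR1 to CR3. SDK1, ABI3BP, SERPINB4, SERPINB3 and SERPINB13 followed at 0.68 to 1.02, all with 2 reads or fewer in EBC-1. This ranking depends on the measure. With a pseudocount of 5 only INHBA and SERPINB4 remained among the 6 nearest, and by Pearson correlation 0 did. SERPINB3 and SERPINB4 have nearly the same sequence, so reads may be split between them and each level is uncertain. Among the 10 genes, NUAK2 was nearest to ANKRD1, ranking 35 at 2.24. F3 and AJUBA were nearest to CTGF, ranking 37 and 59 at 0.52 and 0.70, and CTGF was nearest to CYR61, ranking 333 at 1.71.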

How the data were processed

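The 10 genes, the gene lists and the rule for named genes (the 10 genes, up to 6 members per list with the largest mean difference, YAP1, WWTR1 and the TEAD genes, and the 6 nearest genes of ANKRD1, CTGF and CYR61) were chosen with earlier results of these data known. One gene that this rule names is not reported here. Per the labels' protocols, Lexogen QuantSeq libraries, which read the 3′ ends of transcripts, were made from total RNA. The submitters' processing notes name Bowtie2, edgeR and hg19, and no source used here gives their roles, the settings, the annotation or the use of strand. Each deposited value is on a log2 scale. After undoing log2(x + 1), 100% of values under 500 units were multiples of 0.25 (tolerance 0.0025 units), and the libraries' sorted log2 values differed by at most 0.81. Quantile normalization of whole counts gives such values, which is inferred and not stated per the labels. The place of a value among a library's distinct values was taken as its reads up to 200 and extended linearly above. At 20 reads, 1 read was worth 0.85 to 1.16 units. Above 200 reads, each further read was taken as 0.685 units in EBC-1 and 1.19, 1.34 and 1.12 units in CR1 to CR3. The worth of a read thus differed more between libraries at higher levels. The 3 resistant lines were compared with EBC-1 by limma 3.58.1 (trended variance, R 4.3.3, Benjamini-Hochberg at 0.05) over the 14749 genes with at least 10 units in a library. The code was also run on simulated data in which a gene had the same spread in every library. That run cannot show whether EBC-1 varies like the resistant lines. The labels do not say that the lines are separate selections. Promoter windows are RefSeq's, GRCh38.p14. The rest used Python 3.11.15 with scipy 1.17.1, pandas 2.3.3, numpy 2.4.6 and matplotlib 3.10.9.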

Additional observations from a re-analysis of the deposited data

How the results depend on the processing

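The limma count of 27 genes became 24 with a pseudocount of 5, 54 with a floor of 50 units, 428 without a floor (23 higher, 405 lower) and 0 without a variance trend (1483 at an unadjusted p under 0.05). Leaving out any 1 resistant line left 1 residual degree of freedom and gave 0 calls each time (765 to 2484 unadjusted), which says nothing about stability, and EBC-1 cannot be left out. None of the 10 genes passed limma with Benjamini-Hochberg adjustment under any of these, their log2 folds kept their sign, and their adjusted p ran from 0.0705, for AJUBA, to 1. ANKRD1 ranged from 4.90 to 7.47, the highest without CR2, and CYR61 from 1.50 to 3.13. TGM2 ranged from 0.14 without CR1 to 0.57 without CR2. Limma without a trend and with other floors was added for these single genes, and leaving out lines for AMOTL1, AMOT and CCDC80, after seeing the data. Counts of the 10 genes at least 2-fold apart kept within 1.5 times under a pseudocount of 5, no floor, a floor of 50 units, centring on the median of all genes and exchanged columns of CR1 and CR3. At 4-fold, 4 and not 7 differed between CR2 and EBC-1, and 3 and not 5 between CR2 and CR1. A stricter threshold lowers such counts for any genes, and the share of all genes at 4-fold was not counted. Of the 6 genes nearest to ANKRD1, 2 (INHBA and SERPINB4) remained with a pseudocount of 5 and 0 by Pearson correlation, and 0 of those nearest to CTGF or to CYR61 remained under either. No paired analysis was possible because the parental group has 1 library. Low parental reads widen the intervals of NUAK2 and RBMS3, and the parental value of AMOT rests on about 9 reads. No fold is given where a gene is listed at 0, and 1 library per line leaves the spread between cultures unknown.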

Other observations

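Family relatives of the 10 genes were measured as well. ANKRD2, a muscle relative of ANKRD1, was listed at 0 in EBC-1, against levels of 6.48, 6.92 and 5.33 in CR1 to CR3. NUAK1, the sister kinase of NUAK2, was at 6.48 in EBC-1, then 8.49, 8.78 and 9.35. Unlike ANKRD1 and NUAK2, neither was lower in CR2 than in both other lines. The AJUBA relatives LIMD1 and WTIP were at 6.45, then 5.84, 5.09 and 5.77, and at 4.09, then 1.46, 2.70 and a listing at 0. Around tissue factor, the clotting inhibitor gene TFPI was at 10.60, then 10.52, 11.66 and 10.99, the thrombomodulin gene THBD at 8.71, then 8.47, 6.75 and 6.77, and the protease receptor gene F2RL1 at 7.80, then 8.01, 5.88 and 6.17. Of the 14 relatives past the floor, 0 passed limma after Benjamini-Hochberg adjustment (lowest adjusted p 0.140, for ANKRD2), and 2 (ANKRD2 and NUAK1) had an unadjusted p under 0.05, as 10.6% of all genes did.

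The genes nearest to CTGF over the 4 libraries were HCST, PDGFRL, LOC101928569, SCARB1, RP1 and LINC00880, at distances of 0.27 to 0.34 log2 units. Those nearest to CYR61 were DCAF4L1, ACTBL2, LINC01405, NPPB, SEPT4 and LINC00664, at 0.25 to 0.44. Apart from SCARB1, the lipoprotein receptor gene at 5.66 in EBC-1, then 8.93, 7.32 and 8.76, they rest on 38 reads or fewer per library. NPPB, the brain natriuretic peptide gene, was at 3.17 in CR1 and 3.49 in CR3 and listed at 0 in EBC-1 and CR2. Of the other 14 YAP and TAZ targets, 11 had a promoter window, with 13 windows in all. A GGAATG match was held by 5 of these genes (AMOTL2, LATS2, AXL, FOXF2 and TGFB2), where 14% of all windows held at least 1. AMOTL2 and AXL had 2 windows each and a match in only 1 of them.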
